A study of Equus caballus with 25 samples.

Results

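Follistatin (FST), the beta A subunit shared by activin A and inhibin A (INHBA) and the inhibin alpha subunit (INHA) were followed through the oestrous cycle of the horse in the endometrium, the lining of the uterus. They were taken as all probes whose RefSeq transcript belongs to one of these genes, which gave 3 of the 620 genes named here and 6 of the 43603 probes on the array. INHBA had 4 probes, FST 1 and INHA 1, and all 6 passed the filter on dim probes. Transcervical biopsies came from 5 normally cycling Bavarian Warmblood mares, whose age is not given in the sources used here. Each mare was sampled once on day 0 (the day of ovulation), day 3 (early luteal phase), day 8 (mid luteal phase), day 12 (late luteal phase) and day 16 (when the next ovulatory phase begins), in different cycles. The labels name no treatment, and the 25 biopsies, 5 per day, were hybridised singly to one-colour arrays. The mares stand as mare 1 to mare 5 below.

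Activins are dimers of beta subunits and belong to the TGF-beta family of secreted signalling proteins. INHBA products paired with each other form activin A, whereas one joined to the INHA product forms inhibin A, which opposes activin. Follistatin binds activin outside the cell and keeps it from its receptors. The family is best known for the control of follicle stimulating hormone by the ovary and pituitary, and activin and follistatin are also made in the uterus, where they act on the decidualising stroma of mice and humans.

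Levels are given as log2 of the background-subtracted signal minus the 75th percentile of its array, so 0 is the signal of a fairly bright probe and each unit is a doubling. A level cannot be set against that of another probe, since probes differ in how strongly they bind. The 75th percentile ranged from 698 to 3701 signal units over the 25 arrays, with a median of 895 on day 0, 1720 on day 3, 1559 on day 8, 1868 on day 12 and 2001 on day 16. Between 70.3% and 88.1% of spots were well above background. Each array correlated with the mean of the other 4 arrays of its day at r = 0.962 or more over the tested probes. Differences between days were tested with limma over 35769 probes, and an adjusted p (Benjamini-Hochberg over all tested probes) under 0.05 is called a change. In the F test over the 5 days, all 3 genes passed, against 35.8% of all tested probes and 43.3% of the 538 named genes tested. Precision is limited by having 5 arrays for each day. In a biopsy of mixed tissue, fewer cells of a type and less RNA per cell cannot be told apart.

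FST had the simplest course of the 3. It was low at ovulation, stepped up by day 3 and again by day 8, and was back at the bottom by day 16. The largest mean difference was the one between day 16 and day 8, an 8.94-fold lower level on day 16. By the F statistic, FST stood in place 7 of the 35769 tested probes and in place 1 of the 538 named genes (adjusted p = 2.96e-10, limma), a place given as a description.

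For mares 1 to 5 in turn, the FST level on day 0 was 0.49, 0.90, 0.62, 0.44 and 0.71. On day 3 it was 1.86, 2.19, 2.17, 2.68 and 1.96. On day 8 it was 3.44, 3.08, 3.29, 3.30 and 3.16. These 3 days did not overlap, and the mares lay closest together on day 8. The median SD over all tested probes was also lowest on day 8 (0.29). On that day 87.7% of probes had an SD at least as large as that of FST, and on day 0 it was 93.9%. On day 12 the level was 2.03, 2.97, 2.94, 2.98 and 2.96. On day 16 it was −0.18, −0.27, 0.027, 0.51 and 0.38. Day 12 lay wholly below day 8 and overlapped day 3 through mare 1 alone, which lay below day 3 of mares 2, 3 and 4, and day 16 overlapped day 0 at the lower end of the day 0 values. The day means were 0.63 ± 0.18, 2.17 ± 0.32, 3.25 ± 0.14, 2.78 ± 0.42 and 0.094 ± 0.34 for days 0, 3, 8, 12 and 16 (SD, n = 5 each).

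**Figure D1:**
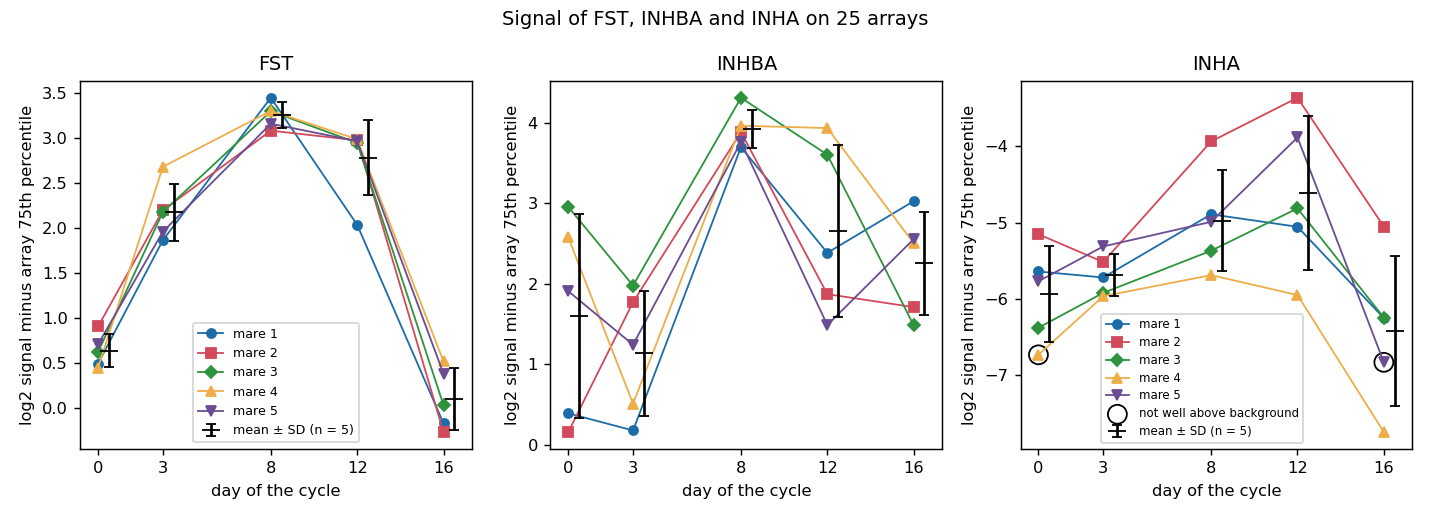
Levels of FST, INHBA and INHA (log2 signal minus the array's 75th percentile, vertical axes on separate scales) against the day of the cycle (horizontal axes). Coloured symbols joined by lines are the 5 mares, black bars the mean ± SD of a day, and open circles the 2 INHA spots not well above background. FST runs in a narrow band with its top on day 8, the INHBA levels of the mares lie closest together on day 8, and INHA has its highest mean on day 12.

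Between day 3 and day 0, FST was the 1 gene of the 3 that changed, and it rose, as did 7.01% of all probes. The rise was 2.91-fold (1.54 ± 0.20 on the log2 scale, moderated SE; adjusted p = 8.64e-05, limma), and the difference within a mare was 1.25 to 2.23 in the 5 mares. Between day 8 and day 3, FST and INHBA rose, as did 6.05% of all probes. FST rose 2.12-fold there (1.08 ± 0.20; adjusted p = 0.000661), with 0.62 to 1.58 within a mare. Within the 4 slides that held both of these days, the FST difference was 0.89 to 1.58, and within the 3 slides that held days 3 and 0 it was 1.25 to 2.23. On most of these slides both days came from the same mare, so the values largely repeat those within a mare. Both rises were seen in 5 of 5 mares. With a normexp background correction that took local backgrounds as given, which reached 772899 on the day 8 array of mare 2, both calls were lost (1.50, adjusted p = 0.0537, and 0.63, adjusted p = 0.275, limma). Without scaling between arrays the day 8 minus day 3 call was lost too (0.81, adjusted p = 0.260). Outside the leave-out fits, the day 3 minus day 0 call held in 14 of 15 other settings and the day 8 minus day 3 call in 13. Normexp with marked backgrounds replaced was among those in which both held.

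Between day 12 and day 8, where 1.1% of all probes changed, 0 of the 3 genes passed in limma. FST was lower on day 12 in all 5 mares (differences of −1.41 to −0.11), and its mean difference was −0.48, with a 95% interval of −0.89 to −0.065 and an adjusted p of 0.240. Mare 1 had by far the lowest day 12 level. Without its array the difference was −0.29 (adjusted p = 0.521).

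Between day 16 and day 12, FST and INHA fell, as did 4.22% of all probes. FST fell 6.43-fold (log2 difference −2.69 ± 0.20; adjusted p = 1.15e-08), with differences of −3.24 to −2.21 in the 5 mares. Within the 3 slides holding both days the difference was −2.92 to −2.21. Each of them held both days of the same mare, so these values repeat those within a mare. Between day 16 and day 8, all 3 genes fell, as did 7.13% of all probes, and the FST difference was −3.16 ± 0.20 (adjusted p = 1.14e-09). Between day 16 and day 3, FST was the 1 gene of the 3 that changed, falling as did 6.96% of all probes, with a difference of −2.08 ± 0.20 (adjusted p = 1.42e-06). Day 16, when the next ovulatory phase begins, and day 0, the day of ovulation, gave 0 changes among the 3 genes in limma, against 4.71% of all probes. The FST difference was −0.54, with a 95% interval of −0.95 to −0.13 (adjusted p = 0.124), and day 16 was the lower one in 4 of 5 mares.

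Against day 0, FST was 6.16-fold higher on day 8 (2.62 ± 0.20; adjusted p = 1.25e-08) and 4.43-fold higher on day 12 (2.15 ± 0.20; adjusted p = 1.79e-07). Of all probes, 10.5% rose in the day 8 comparison and 9.36% in the day 12 comparison. FST and INHBA were the members that rose between day 8 and day 0, FST and INHA those that rose between day 12 and day 0. Between day 12 and day 3, FST and INHBA rose, as did 8.7% of all probes. FST differed by 0.61 ± 0.20 (adjusted p = 0.0360), higher on day 12 in 5 of 5 mares by 0.17 to 1.01. That call was lost when any of 8 single arrays was left out, all of them of day 3 or day 12, and without mare 2, 3 or 5. Outside the leave-out fits that call held in 9 of 15 other settings. Centring each array on its median was among those that lost it (0.52, adjusted p = 0.134). The median of all tested probes lay 0.15 higher on day 12 than on day 3. The median of all probes was also −0.11 for day 3 minus day 0, the only other pair in which it was beyond 0.1.

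From the lowest to the highest mean, the FST order was day 16, day 0, day 3, day 12 and day 8. The neighbours day 16 and day 0, and the neighbours day 12 and day 8, did not differ beyond the test's threshold. Day 3 differed from day 0 and, with an adjusted p close to the threshold, from day 12.

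INHBA was at its highest on day 8 in every mare, with the mares within 0.61 of each other, while on each other day the gap between the highest and the lowest mare was at least 1.54 on the log2 scale. The rise between day 8 and day 3 was 6.93-fold, and no difference between neighbouring mean levels passed. For mares 1 to 5 in turn, the probe with the highest mean signal gave 0.39, 0.16, 2.96, 2.58 and 1.91 on day 0. On day 3 it gave 0.18, 1.77, 1.98, 0.51 and 1.24. Within each of these days the highest and the lowest mare were far apart, the gap on the log2 scale being 2.80 on day 0 and 1.80 on day 3.

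On day 8 the INHBA level was 3.70, 3.89, 4.32, 3.97 and 3.77, within 0.61 of each other. On day 12 it was 2.39, 1.87, 3.61, 3.94 and 1.49, and on day 16 it was 3.03, 1.71, 1.48, 2.50 and 2.56. Day 8 did not overlap days 0, 3 and 16, and overlapped day 12 through mare 4, whose level hardly differed between these 2 days. The means were 1.60 ± 1.27 on day 0, 1.14 ± 0.78 on day 3, 3.93 ± 0.24 on day 8, 2.66 ± 1.07 on day 12 and 2.26 ± 0.64 on day 16 (SD, n = 5 each). The SD of a probe over mares had a median over all tested probes of 0.44, 0.45, 0.29, 0.35 and 0.51 on those days. On day 0, 3.71% of probes had an SD at least as large as that of INHBA, and on day 12 it was 2.72%. On day 3 it was 21.1%, on day 8 it was 61.0% and on day 16 it was 37.8%.

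Within an array the INHBA spots lay close together. One of the 4 probes, A_69_P000421, was printed 5 times on each array, and the SD of its 5 spots within an array had a median of 0.055 (lowest 0.010, highest 0.26). The 4 probes of an array lay within 0.12 to 0.41 of each other, with a median of 0.25. All 200 INHBA spots of the 25 arrays were well above background, 0 were saturated, and 2 spots marked as outliers by the scanner software were left out. The 4 probes share the transcript and the arrays, so they repeat the measurement and not the mares.

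**Figure D2:**
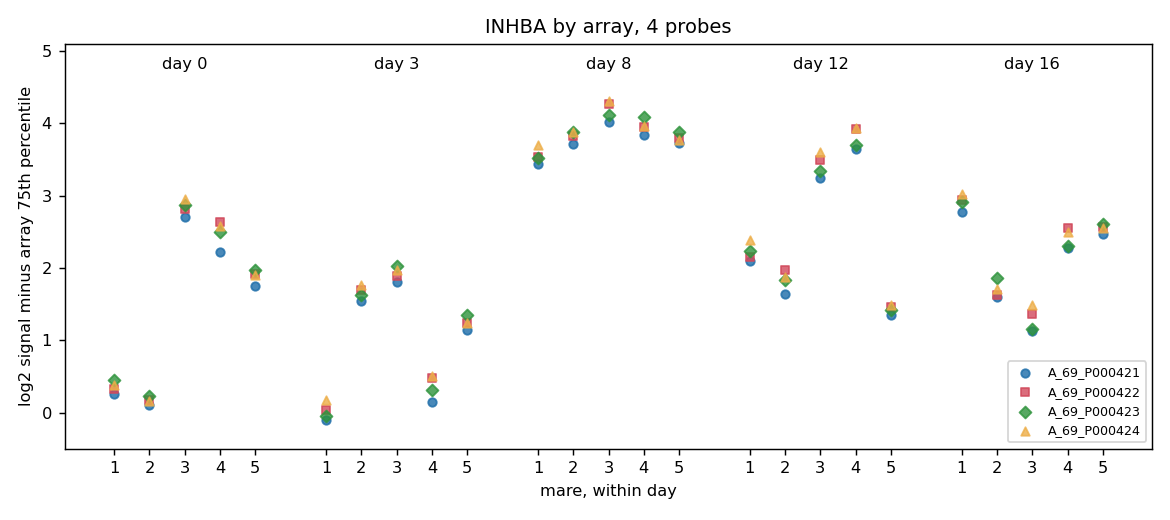
Level of the 4 INHBA probes (coloured symbols, log2 signal minus the array's 75th percentile, vertical axis) on each of the 25 arrays, ordered by day and by mare within a day (horizontal axis). The symbols of an array lie within 0.12 to 0.41, while the mares of day 0 differ by up to 2.80 in the probe with the highest mean signal, and those of day 8 by up to 0.61.

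All 4 INHBA probes passed the F test, with adjusted p from 0.00131 to 0.00196. For the probe with the highest mean signal, day 8 minus day 3 was 2.79 ± 0.52 (adjusted p = 0.000807, limma), higher on day 8 in 5 of 5 mares by 2.12 to 3.53. Day 8 minus day 0 was 2.33 ± 0.52, a 5.03-fold rise (adjusted p = 0.00251), with 1.36 to 3.73 within a mare. Over the 4 probes these differences ran from 2.79 to 2.85 and from 2.30 to 2.34. Within slides, day 8 exceeded day 3 by 1.99 to 3.53 in 4 slides and exceeded day 0 by 1.86 to 3.58 in 2 slides. Where a slide held both days of the same mare, its value repeats the one within that mare. With mare and slide both as blocks, day 8 minus day 0 was 1.91 and no longer passed (adjusted p = 0.100), and with that normexp correction it was 1.81 (adjusted p = 0.0738).

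After day 8 the test gave less. The day 16 minus day 8 difference was −1.67 ± 0.52 (adjusted p = 0.0330), a fall in 5 of 5 mares, with differences of −2.83 to −0.67. It was lost when any of 5 arrays was left out, namely day 8 of mares 2, 3 and 4 and day 16 of mares 2 and 3. It was also lost without all arrays of mare 2, 3, 4 or 5, with values of −1.92 to −1.38 over all arrays and mares left out. Day 12 minus day 3 was 1.52 ± 0.52 (adjusted p = 0.0461), higher on day 12 in 5 of 5 mares by 0.099 to 3.43. That call ended in 14 of the 25 fits without 1 array and in those without mare 1, 3, 4 or 5. With probe A_69_P000423 the adjusted p was 0.0538.

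The remaining INHBA differences did not pass. Day 12 minus day 8 was −1.27 (95% interval −2.35 to −0.18; adjusted p = 0.234), with differences of −2.28 to −0.030 in the 5 mares. Day 3 minus day 0 was −0.46 (−1.55 to 0.62; adjusted p = 0.601) and was −2.07 in mare 4 and 1.62 in mare 2. From day 12 to day 16 the difference was −0.40 (−1.49 to 0.68; adjusted p = 0.697), negative in 3 mares and positive in 2, and it was 0.029 without mare 3. For day 16 against day 3 it was 1.12 (0.036 to 2.21; adjusted p = 0.176). Against day 0, day 12 was higher by 1.06 (−0.025 to 2.15; adjusted p = 0.179) and day 16 by 0.66 (−0.43 to 1.74; adjusted p = 0.521). The order of the means was day 3, day 0, day 16, day 12 and day 8, from low to high.

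INHA was a dim probe. Its processed signal was 8.15 to 161 units, and it was well above background on 23 of 25 arrays, the exceptions being day 0 of mare 4 and day 16 of mare 5. Its mean was highest on day 12 and lowest on day 16, and the fall between them, 3.51-fold, was the largest INHA difference. For mares 1 to 5 in turn, the level was −5.64, −5.15, −6.38, −6.73 and −5.77 on day 0. On day 3 it was −5.72, −5.51, −5.92, −5.96 and −5.31, and on day 8 it was −4.89, −3.93, −5.37, −5.69 and −4.99. Days 0, 3 and 8 overlapped one another.

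On day 12 the INHA level was −5.05, −3.36, −4.81, −5.95 and −3.88. On day 16 it was −6.25, −5.05, −6.24, −7.74 and −6.83. The 2 days overlapped, because mare 2 on day 16 stood above mare 4 on day 12, but within each mare day 16 was the lower one. Mare 4 had the lowest INHA level of the 5 mares on 5 of 5 days, and mare 2 had the highest on 4 of 5 days. These ranks depend in part on the scaling. Before it, the day 16 signal was 17.3 units in mare 4 and 11.5 in mare 1, and the day 0 signal 19.6 in mare 2 and 31.2 in mare 1. The day 0 spot of mare 4 and the day 16 spot of mare 5 were also not well above background. The means were −5.93 ± 0.62, −5.68 ± 0.27, −4.97 ± 0.66, −4.61 ± 1.01 and −6.42 ± 0.98 for days 0, 3, 8, 12 and 16 (SD, n = 5 each).

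INHA passed the F test with an adjusted p of 0.0170. The day 16 minus day 12 difference was −1.81 ± 0.46 (adjusted p = 0.0143, limma), lower on day 16 in 5 of 5 mares. The 3 slides that held both days repeat mares 1, 3 and 4. The difference was −1.80 to −1.20 in mares 1 to 4. In mare 5 it was −2.95, but the day 16 spot of that mare was not well above background, so its size is not a measured one, although the fit used it as given. The call was lost without the day 12 array of mare 2 (adjusted p = 0.0536), without mare 3 (adjusted p = 0.0724) and without mare 5 (−1.53, adjusted p = 0.119). It held in 9 of 14 other settings besides these leave-out fits, and the difference shrank to −0.83 (adjusted p = 0.857) with normexp and −0.85 (adjusted p = 0.0764) with normexp and marked backgrounds replaced. Day 16 minus day 8 was −1.45 ± 0.46 (adjusted p = 0.0339), with differences of −2.06 to −0.88 within a mare. In mare 5 the value, −1.84, rests on the same day 16 spot, so its size is not a measured one. Within slides, 3 of 4 slides had the same direction and the range was −1.84 to 0.64. Those 3 slides repeat values within a mare, and the slide that compared different mares gave 0.64. The day 16 minus day 8 call was lost without any of 6 arrays, day 8 of mares 1, 2 and 5 and day 16 of mares 3, 4 and 5. It was also lost without all arrays of mare 1, 3, 4 or 5. Day 12 minus day 0 was 1.32 ± 0.46, a 2.50-fold rise (adjusted p = 0.0472) seen in 5 of 5 mares, with 0.59 to 1.89 within a mare. The day 0 spot of mare 4 was not well above background, so the size in that mare is not a measured one. The call was lost in 19 of the 25 fits without 1 array and without mare 1, 2, 3 or 5. With normexp and marked backgrounds replaced, which adds an offset of 50 to each signal, the day 12 minus day 0 difference was 0.11 (adjusted p = 0.808).

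Day 8 minus day 0 was 0.96 for INHA (95% interval 0.013 to 1.91; adjusted p = 0.143) and day 12 minus day 3 was 1.07 (0.13 to 2.02; adjusted p = 0.110), both positive in 5 of 5 mares. With the mare as a block, which takes out the steady differences between the mares, both passed, with adjusted p = 0.0120 and adjusted p = 0.00651 (limma). With normexp and marked backgrounds replaced, day 8 minus day 0 was −0.012 (adjusted p = 0.981). The day 0 spot of mare 4, used in that pair, was not well above background. Day 8 minus day 3 was 0.71 (−0.24 to 1.66; adjusted p = 0.344), also positive in 5 of 5 mares. Day 3 minus day 0 was 0.25 (−0.70 to 1.20; adjusted p = 0.762), day 12 minus day 8 was 0.36 (−0.59 to 1.31; adjusted p = 0.722) and day 16 minus day 0 was −0.49 (−1.44 to 0.46; adjusted p = 0.592). Against day 3, day 16 gave −0.74 (−1.69 to 0.21; adjusted p = 0.343). From low to high the means ran day 16, day 0, day 3, day 8 and day 12, and no neighbours in this order differed beyond the threshold.

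**Figure D3:**
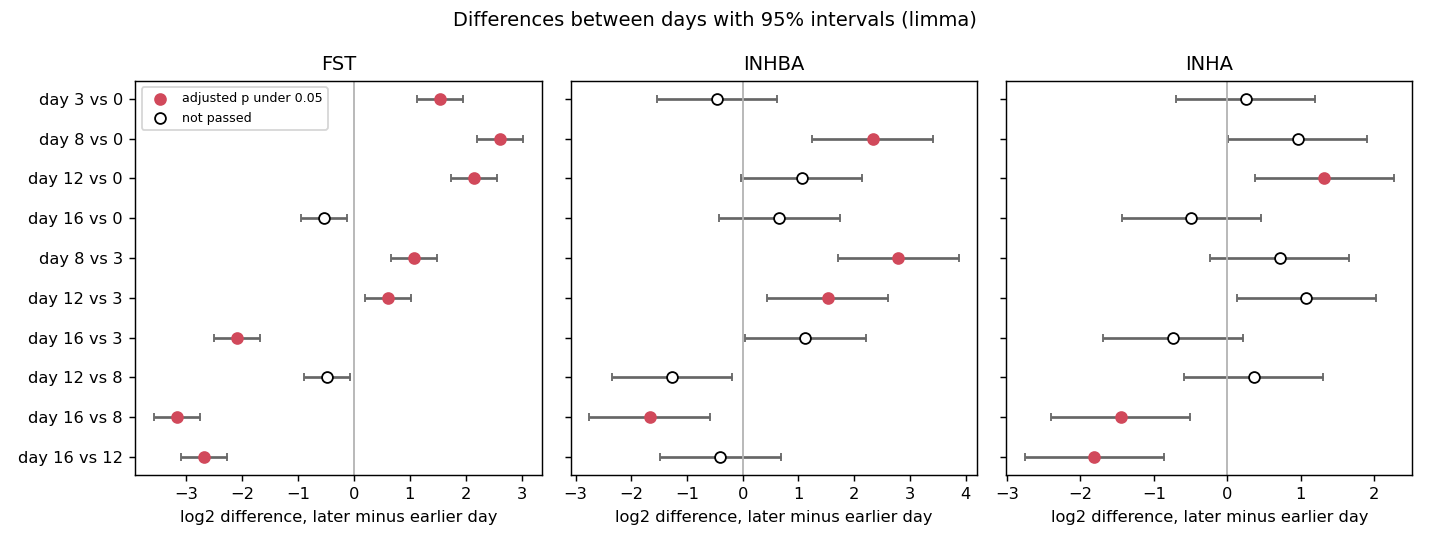
Log2 difference, later minus earlier day (horizontal axes), of FST, INHBA and INHA for all 10 pairs of days (vertical axis), with unadjusted 95% intervals from limma over 25 arrays. Filled points passed an adjusted p of 0.05. FST passed in 8 pairs, INHBA in 4 and INHA in 3, and the FST intervals are the narrowest.

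FST and INHBA, the gene of the binding protein and the gene of the ligand's subunit, had their highest means on the same day, and both rose between day 8 and day 3, by different amounts. For the 4 steps between successive days and the 3 pairs of genes, the difference between the changes of 2 genes was tested by exact two-sided permutation of the 5 against 5 arrays, adjusted over these 12 tests. The smallest p the design allows is 0.00794. Each difference shows unequal change, not relative levels.

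Between day 8 and day 3 the change of FST was smaller than that of INHBA by 1.71 (FST minus INHBA −1.71, adjusted p = 0.0317, exact permutation), in 5 of 5 mares. Between day 16 and day 12, FST minus INHBA was −2.28 (adjusted p = 0.0317, exact permutation), again in 5 of 5 mares, with FST down in every mare and INHBA down in 3. Between day 3 and day 0, FST minus INHBA was 2.002 in 4 of 5 mares, which did not pass (adjusted p = 0.0952, exact permutation).

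FST also changed by more than INHA between day 3 and day 0, by 1.29 (adjusted p = 0.0317, exact permutation, 5 of 5 mares). The INHA spot of mare 4 on day 0 was not well above background. The size in that mare is therefore not a measured one, although the test used it as given. The 2 subunits of inhibin A differed between day 8 and day 3, where INHBA changed by 2.08 more than INHA (adjusted p = 0.0476, exact permutation, 5 of 5 mares). The other 7 tests did not pass, among them FST minus INHA between day 16 and day 12 (−0.87, adjusted p = 0.324, exact permutation). By sign flips within the 5 mares the smallest possible p is 0.0625, and the 4 differences that passed had an adjusted p of 0.15 there. FST minus INHA between day 12 and day 8 (−0.84, negative in 5 of 5 mares) had that same sign-flip adjusted p. It did not pass by exact permutation (adjusted p = 0.296).

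**Figure D4:**
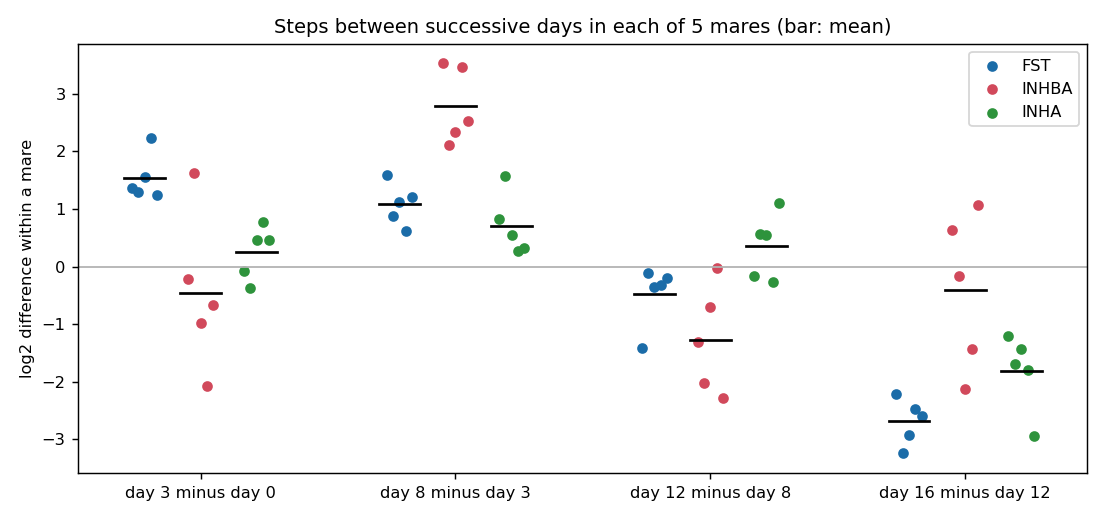
Log2 difference within each mare (vertical axis) at the 4 steps between successive days (horizontal axis) for FST, INHBA and INHA. Each point is 1 of 5 mares and each bar the mean. FST is above 0 in all mares at the first 2 steps and below 0 at the last 2, INHBA is above 0 in all mares between days 8 and 3 and mixed at the first and last step, and INHA is below 0 in all mares between days 16 and 12.

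Of a list of 60 genes of the TGF-beta family, 7 had a named and tested probe: 4 of 24 ligands, 3 of 13 binding proteins and antagonists, 0 of 15 receptors and 0 of 8 SMADs. The receptors and signal carriers of activin were therefore not analysed here. Names were given only through a RefSeq transcript, so probes left without a name may include other genes of this list and of those below. Besides FST, INHBA and INHA these were TGFB1, MSTN, DCN and BGN, of which 3 of 4 passed the F test, against 43.3% of the named genes tested. The medians of these 4 genes were −0.60 for day 3 minus day 0, 0.056 for day 8 minus day 3, 0.36 for day 12 minus day 8 and −0.074 for day 16 minus day 12. Over all tested probes they were −0.11, 0.077, 0.064 and −0.074.

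TGFB1, the founding ligand of the family, had its highest mean on day 12 and rose between day 12 and day 0 by 1.06 ± 0.27 (adjusted p = 0.00692, limma, 5 of 5 mares). Its means were −2.26 ± 0.22, −1.86 ± 0.095, −1.59 ± 0.29, −1.20 ± 0.31 and −1.61 ± 0.82 on days 0, 3, 8, 12 and 16 (SD, n = 5 each). MSTN, whose product myostatin is also bound by follistatin, did not pass the F test (adjusted p = 0.685), with means between −1.93 and −1.30.

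DCN and BGN encode decorin and biglycan, matrix proteoglycans that bind TGF-beta, and both were highest at ovulation. DCN averaged 4.93 ± 0.21, 3.84 ± 0.76, 3.50 ± 0.15, 3.90 ± 0.28 and 4.54 ± 0.37 on days 0, 3, 8, 12 and 16 (SD, n = 5 each). It fell between day 8 and day 0 (−1.43 ± 0.26, adjusted p = 0.000401, limma) and rose between day 16 and day 8 by 1.04 ± 0.26 (adjusted p = 0.00840), where FST did the opposite. BGN averaged 5.25 ± 0.31 on day 0 and between 4.03 and 4.40 on the later days. It was lower than on day 0 on day 3 (−0.85, adjusted p = 0.0220), day 8 (−0.87, adjusted p = 0.0110), day 12 (−1.22, adjusted p = 0.000804) and day 16 (−0.96, adjusted p = 0.0207), in 5 of 5 mares except on day 3, where it was 4 of 5. The F test call of TGFB1 was lost in 17 of 44 other settings. The day 3 and day 16 differences of BGN lost their call in 15 and 14 of 45 other settings.

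Of 26 reproductive hormones and receptors, 7 had a named and tested probe and 5 passed the F test, against 43.3% of the named genes tested. Between day 8 and day 3, 2 of 7 rose and 0 fell, where 6.05% of all probes rose. Between day 16 and day 8, 0 rose and 3 fell, where 7.13% of all probes fell. ESR1, the oestrogen receptor alpha, was lowest on day 12 (5.39 ± 0.27, against 7.12 ± 0.24 on day 0, SD, n = 5 each), a log2 difference of −1.73 ± 0.25 (adjusted p = 4.53e-05, limma). The mean of its 5 other probes was highest on day 3, and 3 of the 5 passed the F test. PTGER2, a receptor of prostaglandin E2, averaged 0.48 ± 0.34, 1.32 ± 0.60, 2.51 ± 0.28, 2.33 ± 0.26 and 1.11 ± 1.21 on days 0, 3, 8, 12 and 16, and rose between day 8 and day 0 by 2.03 ± 0.39 (adjusted p = 0.000652). CYP19A1, the aromatase that makes oestrogen, rose between day 8 and day 3 by 1.86 ± 0.53 (adjusted p = 0.0206) and fell between day 16 and day 8 (−1.78 ± 0.53, adjusted p = 0.0250). INHBA passed in both of these pairs too, in the same directions. PTGFR, the receptor of prostaglandin F, fell between day 16 and day 3 (−1.99 ± 0.41, adjusted p = 0.00217). RLN, which encodes relaxin, fell in that pair too (−1.30 ± 0.37, adjusted p = 0.0185). CYP19A1 lost its F test call in 17, and RLN in 29, of 44 other settings.

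Markers of cell types were sparse among the named probes. The defining epithelial marker measured, ESRP1, 1 of 8 listed, was at 2.94 to 3.18 in the day means and did not pass the F test (adjusted p = 0.621). For ciliated cells 1 of 3 was measured (DYDC1, adjusted p = 0.146), and for smooth muscle and blood 0 of 4 and 0 of 3. For stromal fibroblasts 2 of 6 were measured, DCN and LUM, and both passed. Their mean level per array was 3.39 to 4.10 on day 0, 1.52 to 3.19 on day 3, 2.10 to 2.65 on day 8, 1.68 to 2.35 on day 12 and 2.43 to 3.71 on day 16, lowest in the luteal phase, when FST was high. PECAM1, 1 of 5 endothelial markers, lay at −0.23 to 0.28 on day 8 and between 0.063 and 1.10 on the other days. It passed the F test (adjusted p = 0.0308) and rose between day 12 and day 3 (0.54 ± 0.19, adjusted p = 0.0461, limma, 5 of 5 mares), a pair in which FST and INHBA rose too, and that call was lost in 28 of 45 other settings. For leukocytes 4 of 11 were measured, with a mean level of −2.54 to −1.93 on day 8 and −1.96 to −0.99 on the other days. GNLY and CD14 passed among them, and both rose between day 16 and day 8 (1.52 ± 0.27 and 1.18 ± 0.27, adjusted p = 0.000389 and 0.00468). The part of changing cell makeup in the results of FST, INHBA and INHA was not tested.

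The named genes most like each of the 3 were taken as those with the smallest root mean square difference between centred day means, over 5 days and among 221 genes that passed the F test. They are a description, since all share the 25 arrays. For FST they were HK2 (0.47), a hexokinase of glycolysis, POR (0.50), the reductase that feeds electrons to cytochromes P450, PLIN2 (0.62), a coat protein of lipid droplets, and SLC11A1 (0.63), a metal ion transporter of phagocytes. HK2 averaged −4.54 ± 0.52, −2.61 ± 0.57, −1.62 ± 0.35, −2.51 ± 0.57 and −3.85 ± 0.32 on days 0, 3, 8, 12 and 16 (SD, n = 5 each), so it was like FST highest on day 8 but lowest on day 0.

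For INHBA the 4 were MMP26 (0.41), a matrix metalloprotease, CYP19A1 (0.48), PLIN2 (0.50) and FAM133B (0.54). MMP26 averaged 4.66 ± 0.90, 4.86 ± 0.42, 6.53 ± 0.12, 6.09 ± 0.44 and 5.88 ± 1.02 on days 0, 3, 8, 12 and 16 (SD, n = 5 each). Its SD was smallest on day 8, as was that of INHBA and the median SD over all tested probes. For INHA they were POR (0.32), VCAM1 (0.33), an adhesion molecule for leukocytes, SMPD5 (0.35) and IL5 (0.36), a cytokine that acts on eosinophils. POR averaged 0.54 ± 0.22, 1.78 ± 0.39, 2.11 ± 0.61, 2.28 ± 0.91 and 0.48 ± 0.24 on those days. SMPD5 lost its F test call in 26, and IL5 in 3, of 44 other settings.

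**Figure D5:**
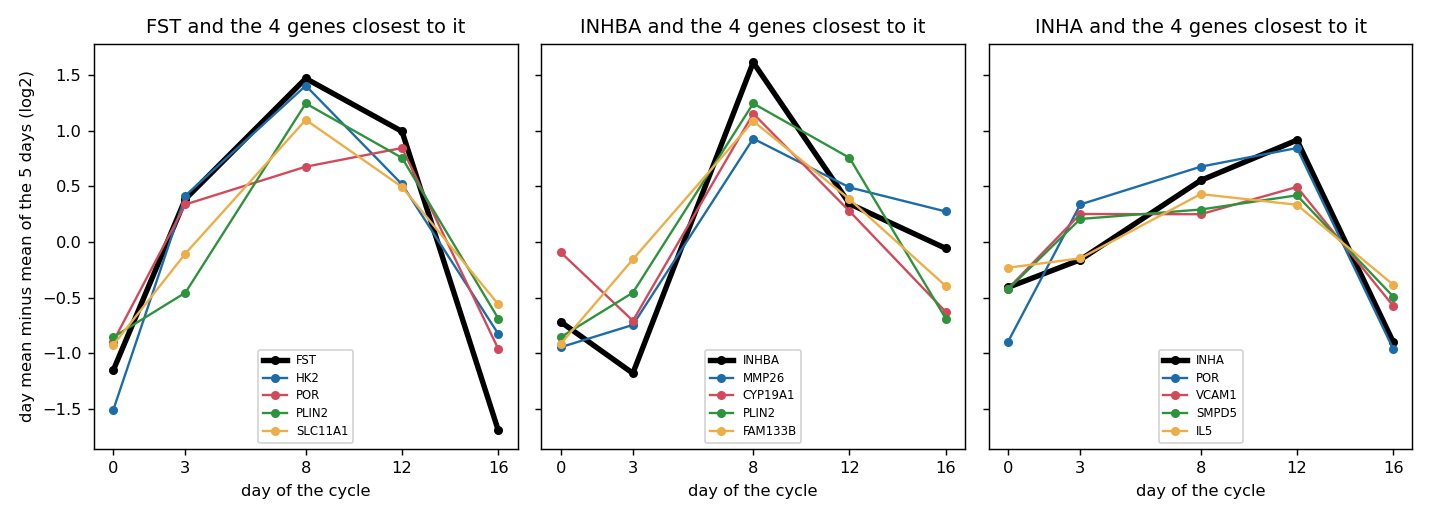
Day means of FST, INHBA and INHA (black) and of the 4 named genes closest to each (colours), each minus its own mean over the 5 days (log2, vertical axis), against the day of the cycle (horizontal axis). The genes beside FST rise by day 8 and are low again on day 16, those beside INHBA have their highest mean on day 8, and those beside INHA stay within a narrower range.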

How the data were processed

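Biopsy RNA, labelled with Cy3 per the labels' protocols, was hybridised to 25 one-colour Agilent arrays. The deposited values are spot intensities. Agilent Feature Extraction 10.7.3.1, per the file headers, had corrected them for background and for spatial trends, with no scaling between arrays on record, and the deposited table equalled the processed signal on all 25 arrays. Here log2 intensities were taken relative to the 75th percentile of their array, which hides any change in total RNA. Outlier spots were dropped before spots of one probe were averaged. Tested probes were those well above background on at least 4 of 5 arrays of some day.

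All 25 arrays entered 1 model in limma 3.58.1 (R 4.3.3) with the day as its term, moderated F and t statistics, two-sided, and Benjamini-Hochberg adjustment over all tested probes within each comparison. Steps were compared between genes by exact permutation in Python 3.11.15 with numpy 2.4.6 and pandas 2.3.3, and figures drawn with matplotlib 3.10.9. The fit was tested on simulated data. For normexp, median spot signals and an offset of 50 were used.

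Gene names came from RefSeq by accession, for 1307 probes of 620 genes, with the probe of highest mean signal standing for a gene. Of the 43603 probes, the rest had no name here and may include further probes of FST, INHA and other genes. The array design predates the assembly of that table, so no positions are given, and probe sequences were not used here. The 3 genes and all lists were chosen with earlier results of these data known. Besides these genes with every probe, the genes named were members of the TGF-beta family list that passed the F test, ESR1 and the 4 hormone list genes with the smallest F test p, and the 4 genes most alike. MSTN and the cell type markers were named outside this rule, after their values were seen.

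Arrays with the same number come from the same mare per the labels. Their deviations from day means correlated at a median of 0.245 within a mare (50 pairs), 0.120 where these lay on different slides (26 pairs), and −0.047 between mares (200 pairs). The arrays lay on 7 slides of 3 or 4, told apart by a code in the file names, and were scanned on 4 days, per the file headers.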

Additional observations from a re-analysis of the deposited data

Results flagged for a closer look

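Among 115 groups of 5 arrays of the same gene and day, 4 had 1 array whose gap to the nearest other was beyond the limit for a group of 5 (0.71 of the group's range). Chance marks about 1 in 20 such groups. The FST level of mare 1 on day 12 was 2.03, against 2.94 to 2.98 in the other 4 mares. The other 3 were not among FST, INHBA and INHA. PTGFR of mare 4 on day 12 was −5.82, against −4.35 to −4.02, and PTGER2 of the same array was 2.79, against 2.16 to 2.27. SLC11A1 of mare 1 on day 3 was −1.26, against −0.83 to −0.74.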

How the results depend on the processing

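The FST calls between days 8 and 0, 12 and 0, 16 and 3, 16 and 8, and 16 and 12, and its F test, held in all settings tried, with day 8 minus day 0 from 2.13 to 3.16 outside the leave-out fits. INHBA kept its call between day 8 and day 3 in all of them, from 2.28 to 3.13. All other called differences lost their call somewhere, and the cause was not tested.

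With the mare as a replicate block, day 8 minus day 0 (0.96, adjusted p = 0.0120) and day 12 minus day 3 (1.07, adjusted p = 0.00651) passed for INHA, and no other call of the 3 genes changed. With block and slide, FST day 12 minus 3 was 0.52 (0.149), INHBA day 8 minus 0 was 1.91 (0.100), day 16 minus 8 was −1.56 (0.0692), day 16 minus 3 passed with 1.56 (0.0478), INHA day 12 minus 0 was 1.03 (0.147), and 7805 probes passed the F test, against 12790. By sign flips within mares the unequal changes of −1.71, −2.28, 1.29 and 2.08 had an adjusted p of 0.15.

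In what follows the adjusted p (limma) stands in brackets. Day 12 minus day 3 of FST was 0.52 (0.134) with median centring, 0.53 (0.0657) with slide as block, 0.59 (0.420) without scaling, 0.61 (0.108) with only the 2 days in the fit and 0.65 (0.499) with normexp. For INHBA it was 1.44 (0.0635) with median centring, 1.52 (0.0582) with no filter, 1.56 (0.0788) with slide as block, 1.51 (0.0881) without scaling, 1.52 (0.0708) with 2 days, 1.56 (0.181) with normexp, 1.45 (0.0538) with probe A_69_P000423, and 1.37 (0.0799) without day 0 of mare 2 and day 3 of mare 4 together. Day 12 minus day 0 of INHA was 1.24 (0.0700) with quantile normalization, 1.22 (0.0574) with median centring, 1.32 (0.0534) with no filter, 1.16 (0.0902) with scan day as block, 1.50 (0.0794) with the array's signal level as covariate, 1.32 (0.0778) with 2 days, 0.057 (0.968) with normexp and 0.11 (0.808) with marked backgrounds replaced. The day 16 minus day 8 value of INHBA was −1.25 (0.128) without scaling, −1.44 (0.0917) with the signal level and −1.14 (0.185) with normexp. For INHA it was −1.03 (0.195) without scaling, −1.08 (0.0570) with slide, −1.22 (0.0568) with scan day, −1.36 (0.0755) with the signal level, −1.45 (0.0768) with 2 days, −1.37 (0.133) with normexp and −0.72 (0.0992) with marked backgrounds replaced. Its day 16 minus day 12 value was −1.65 (0.0811) without scaling, −1.44 (0.0510) with scan day, −1.81 (0.0990) with 2 days, −0.83 (0.857) with normexp and −0.85 (0.0764) with marked backgrounds replaced.

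Without scaling, FST day 8 minus 3 was 0.81 (0.260), while INHBA day 12 minus 0 (1.85, 0.00850) and day 16 minus 0 (1.62, 0.0174) and INHA day 8 minus 0 (1.50, 0.0365) passed. The day 16 minus day 0 difference turned to 0.42 for FST and 0.47 for INHA, and day 3 minus day 0 of INHBA to 0.35. Normexp with the backgrounds as given, which reached 772899 on the day 8 array of mare 2 and at most 251 on the others, left 3702 probes. It gave FST day 3 minus 0 of 1.50 (0.0537), day 8 minus 3 of 0.63 (0.275) and day 12 minus 8 of 0.023, INHBA day 8 minus 0 of 1.81 (0.0738) and F test p of 0.0733 for INHBA and 0.391 for INHA, with INHA at −0.43 for day 3 minus 0 and −0.54 for day 12 minus 8. With marked backgrounds replaced the INHA F test p was 0.0641, day 3 minus 0 was −0.48 and day 8 minus 0 was −0.012. A filter of well above background on all arrays leaves INHA out.

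Leaving out each array or mare gave FST day 12 minus 3 of 0.51 to 0.79, INHBA day 12 minus 3 of 1.05 to 1.88, day 16 minus 8 of −1.92 to −1.38 and day 16 minus 12 of −0.77 to 0.029, INHA day 12 minus 0 of 1.01 to 1.66, day 12 minus 3 of 0.76 to 1.41 (it passed without day 12 of mare 4 or all of mare 4), day 16 minus 8 of −1.79 to −1.12, day 16 minus 12 of −2.16 to −1.48, an INHA F test p of 0.00463 to 0.136 (lost without mare 1, 3 or 5) and 7503 to 13967 probes in the F test. The unequal changes were −1.83 to −1.43 and −2.66 to −1.94 for FST minus INHBA between days 8 and 3 and between days 16 and 12, 1.20 to 1.42 for FST minus INHA between days 3 and 0, and 1.80 to 2.47 for INHBA minus INHA between days 8 and 3, with adjusted p of at least 0.0686 with 4 mares. The smallest p that 4 against 4 arrays allow is 0.0286, so 7 of the 12 tests would have to reach it for any to pass, and these fits say nothing about stability. The dim INHA signal limits all INHA values.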
